A study of Mus musculus with 6 samples.

Results

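The clustered protocadherin genes lie in 3 neighbouring clusters, alpha, beta and gamma, on mouse chromosome 18. They were taken as the protein-coding genes of the RefSeq table for the build GRCm38 whose symbols name a member of one of these clusters, which gave 57 of 21900 protein-coding genes. The alpha cluster held 14 members, the beta cluster 22 and the gamma cluster 21. Of these, 5 were C-type genes (Pcdhac1, Pcdhac2, Pcdhgc3, Pcdhgc4 and Pcdhgc5) and 52 belonged to variable exons. Pcdhgb8, which the table gives as a transcribed pseudogene, was not counted.

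The chromatin came from P19 cells, a mouse embryonal carcinoma line derived from a teratocarcinoma, grown in serum-containing proliferation medium with no other treatment in the labels. Native, uncrosslinked chromatin was immunoprecipitated and sequenced for histone H3 crotonylated at lysine 9 (H3K9cr) or acetylated at the same residue (H3K9ac), in 2 biological replicates per mark. Each of these 4 libraries had its own peak list, and the 2 inputs were not analysed here. All libraries come from 1 cell line, and with 1 antibody per mark the effects of antibody and mark cannot be told apart.

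Clustered protocadherins are cadherin-like adhesion proteins of the cell surface that give neurons an identity by which they recognise their own branches. In the alpha and gamma clusters each variable or C-type exon has its own promoter and is spliced to constant exons shared by the whole cluster, whereas each beta gene is a single exon with no constant part. In neurons the promoters of variable exons are chosen in a largely random way, through looping by CTCF and cohesin to distant enhancers, and most of them carry a conserved sequence element that Pcdhb1, Pcdhac2, Pcdhgc4 and Pcdhgc5 lack. C-type promoters are less random and are used in many neurons of a kind. Acetylation and crotonylation of this lysine are both found at active promoters.

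In GRCm38 coordinates counted from 1, the alpha records ran from position 36930285 to 37188897 of chromosome 18, the beta records from 37264998 to 37521419 and the gamma records from 37661775 to 37841873. The gene table gives no strand, and the lower coordinate of each record was taken as its 5' end because the alpha and the gamma members share their upper ends, which differed by at most 1240 and 10 bp. Neighbouring 5' ends within a cluster were at least 4154 bp apart (median 7202.5 bp). No peak lay within 1 kb of the 5' ends of more than 1 member, so no peak below is counted for more than 1 member. The peaks at Pcdha4, Pcdha6, Pcdha7 and Pcdhb4 also lay at an end of another record of the table (Gm37013, Gm38666, Gm38667 and Gm18529), from which they cannot be told apart.

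The 4 lists held 28360 and 28345 peaks for H3K9cr and 26096 and 27474 peaks for H3K9ac, with a median length between 1185 and 1246 bp. Since read depth is not given in these sources, values carry no counting interval, and an unlisted site may hold the mark below the authors' threshold. Markers of embryonal carcinoma cells, Pou5f1, Sox2 and Nanog among them, had a peak at an end of the gene record in all 4 libraries for 8 of 8 genes. By the same count 61.5% of all protein-coding genes did so. Among 12 marker genes of other cells, 9 did so too, at lower median ranks in their lists (43.6 to 47.8% against 77.4 to 83.4%). Ptprc, Hbb-bt and Alb, markers of blood and liver, had none. Single genes went against these medians. Nanog, with a mean rank of 29.6% over the libraries, stood below all 9 listed markers of other cells. Tubb3 and Snap25, markers of neurons, had mean ranks of 68.8 and 67.2%, above those of Tdgf1 (63.2%) and Dppa4 (47.4%). The ranks of both sets thus overlapped. Whether cells of other types took part in any value below was not tested.

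Most clustered protocadherin promoters carried both marks in P19 cells. A peak within 1 kb of the 5' end was present in all 4 libraries at 41 of 57 members, in some libraries at 6 and in none at 10. In the same window, 61.4% of the 17492 other protein-coding genes with a known start had a peak in all 4 libraries and 36.6% had none, so the members' share of 71.9% was of the same order as that of other genes. Per library, 46 and 44 members were listed for H3K9cr and 41 and 45 for H3K9ac. In a population of cells, a mark on part of the cells and a weaker mark on all of them cannot be told apart.

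The clusters differed in how completely they were marked. All 14 alpha members had peaks in all 4 libraries, as did 16 of 22 beta members and 11 of 21 gamma members. All 5 C-type members did so, against 36 of 52 variable members. The unmarked members were thus variable exons of the beta and gamma clusters. Exons of neighbouring members resemble each other in sequence, and how reads with several matches were treated is not given in the sources used here; its part in unlisted promoters was not tested.

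**Figure D1:**
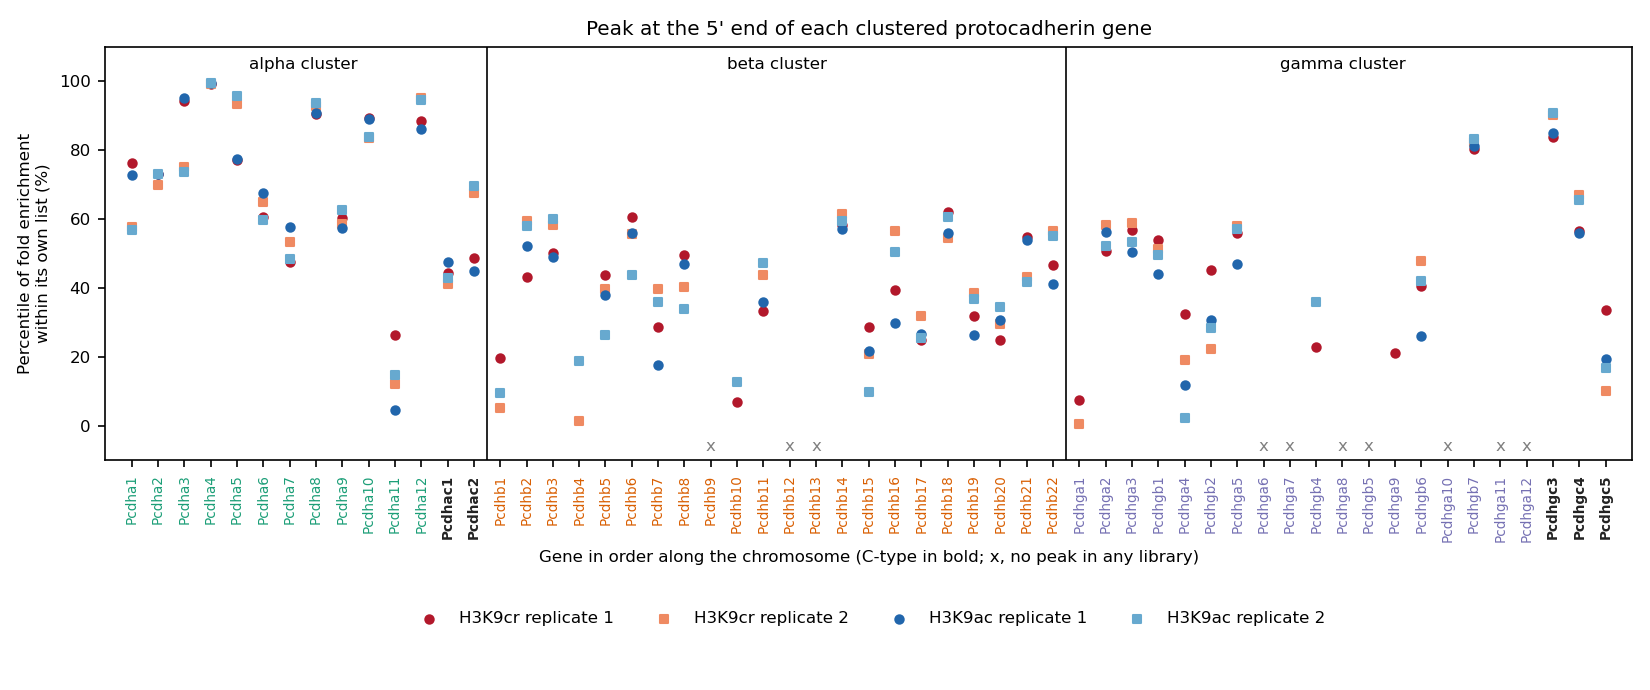
Percentile of the fold enrichment of the peak at the 5' end of each of the 57 members within its own list (vertical axis, %), in order along the chromosome, with 1 point per library and a cross for the 10 members with no peak in any library. The alpha members reach from below 20 to above 99, the beta members stay below 63, and crosses gather in the later gamma variable exons.

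The strength of a peak is given by the authors' fold enrichment over local background and by its percentile, the rank of that value within its own list, where 100 is the strongest peak. Sets of 4 values follow the order H3K9cr replicates 1 and 2, then H3K9ac replicates 1 and 2. Where libraries are compared, the comparison rests on percentiles.

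Pcdha4 was the most strongly marked member. Its 5' end lies at position 36952689, and fold enrichment there was 167, 178, 149.6 and 212, which put it at the 99.3, 99.3, 99.4 and 99.5 percentiles. It thus stood above the 99th percentile in each list. Pcdha8, at 36992467, had fold enrichments of 92.6, 104.02, 78.6 and 123, and Pcdha12, at 37020230, had 85.5, 119, 66.8 and 129. Both ranked above the 86th percentile in every library. Like all variable members, these encode alternative extracellular domains of one protein family, and no separate function is given here for each.

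The weakest alpha promoter was that of Pcdha11, which lies between the strongly marked Pcdha10 and Pcdha12. Fold enrichment at its 5' end (37010858) was 8.08, 5.11, 4.07 and 5.998, and the percentile ranged from 4.54 in H3K9ac replicate 1 to 26.3 in H3K9cr replicate 1. Its neighbour Pcdha10 had values from 70.5 to 88.6. Pcdha7 (17.7, 21.7, 25.1 and 20.3) and Pcdha9 (30.1, 27.0, 24.9 and 37.5) were next lowest among the variable alpha members. Every library put Pcdha11 below both of them, and their percentiles did not overlap with those of Pcdha8 or Pcdha12. The remaining variable alpha members Pcdha2 and Pcdha6 had fold enrichments between 30.4 and 56.1.

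At several alpha promoters the fold enrichment of the peak differed by replicate number rather than by mark. Pcdha1, the first gene of the cluster (36930285), had fold enrichments of 55.6 and 42.2 in the libraries numbered 1 and of 25.9 and 29.3 in those numbered 2, at percentiles of 76.3 and 72.7 against 57.6 and 56.8. Pcdha3 had 109 and 98.3 in the libraries numbered 1 and 52.2 and 57.5 in those numbered 2. At Pcdha5 the order was the opposite, with 57.5 and 49.6 in the libraries numbered 1 and 107 and 138 in those numbered 2. In percentiles, Pcdha3 stood at 94.2 and 95.2 against 75.015 and 73.8, and Pcdha5 at 77.2 and 77.6 against 93.4 and 95.6. In fold enrichment and its percentile, the 2 marks of a number lay close together at these 3 promoters and the 2 replicates of a mark lay apart. The same was so, to differing degrees, at Pcdha8, Pcdha10, Pcdha12 and Pcdhac2. The pileup, the coverage at the summit, whose scale may differ between lists, did not show this split. It was 160.58, 179.96, 108 and 204.03 at Pcdha1, 326.8, 364.15, 267 and 401.22 at Pcdha3 and 286.42, 323.92, 220 and 413.91 at Pcdha5. For both marks it was higher in the libraries numbered 2, also at Pcdha1 and Pcdha3, where their fold enrichment was lower. The part of the local background in the split was not tested. Pcdha3 and Pcdha5 were named here after their values were seen. The labels do not say whether libraries with the same number share a culture.

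Beta promoters carried weaker peaks than most alpha promoters. Pcdhb14, at 37447657, had fold enrichments of 27.7, 30.1, 24.6 and 32.9. For Pcdhb18, at 37489465, they were 32.3, 22.7, 23.5 and 34.5, and for Pcdhb3, at 37300799, they were 19.9, 26.5, 17.95 and 33.6. These were the 3 highest beta members by mean percentile, and none passed the 63rd percentile in any library. Their percentiles overlapped with one another. Among beta members listed in every library, Pcdhb15 was lowest, with 8.68, 6.58, 6.94 and 5.16. Pcdhb17 (7.68, 9.22, 7.86 and 8.46) and Pcdhb20 (7.74, 8.54, 9.11 and 11.7) followed. The other 10 beta members listed in every library had fold enrichments between 6.13 and 30.8.

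At 3 beta promoters the peak was listed in only part of the libraries. Pcdhb1, the first gene of the cluster, lies apart from the rest at 37264998 and had fold enrichments of 6.51 and 4.13 for H3K9cr and 5.13 in H3K9ac replicate 2, with no peak in H3K9ac replicate 1. Pcdhb4 was listed in the libraries numbered 2 alone, at 3.34 for H3K9cr and 6.84 for H3K9ac. Pcdhb10 was listed in H3K9cr replicate 1 at 4.48 and in H3K9ac replicate 2 at 5.58. All these values lay below the 20th percentile of their lists. Pcdhb9, Pcdhb12 and Pcdhb13 had no peak in any library, and the peaks nearest to their 5' ends lay 10844, 12032 and 5136 bp away.

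In the gamma cluster, marked and unmarked promoters fell in different stretches. Of the 7 variable members from Pcdhga1 to Pcdhga5, 6 had peaks in all 4 libraries, whereas of the 11 from Pcdhga6 on only Pcdhgb6 and Pcdhgb7 did. This division was chosen after the values were seen. By subtype, 4 of 12 gamma A members and 4 of 6 gamma B members were listed in every library. Pcdhga6, Pcdhga7, Pcdhga8, Pcdhgb5, Pcdhga10, Pcdhga11 and Pcdhga12 had no peak in any library, and the nearest peak lay between 2852 bp (Pcdhga12) and 11901 bp (Pcdhga6) from their 5' ends.

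The strongest variable gamma promoter was within this mostly unlisted stretch. Pcdhgb7, at 37751619, had fold enrichments of 64.3, 68.0, 56.2 and 80.5, at percentiles between 80.4 and 83.1. Its unmarked neighbours Pcdhga10 and Pcdhga11 begin on either side of it. Pcdhga3, at 37674335, had 25.9, 27.2, 18.99 and 25.3, and Pcdhga5, at 37694375, had 25.1, 26.1, 16.5 and 29.8. Both were below Pcdhgb7 in every library, and their percentiles overlapped with each other.

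The number of variable gamma members listed was 11 and 9 for H3K9cr and 8 and 9 for H3K9ac, and Pcdhga1, Pcdhga9 and Pcdhgb4 made up the difference. Pcdhga4, listed in every library, had 9.91 and 6.17 for H3K9cr and 5.07 and 3.79 for H3K9ac, at percentiles of 32.5, 19.1, 11.7 and 2.15. Both H3K9cr percentiles thus lay above both H3K9ac percentiles, as they also did at Pcdhb5, Pcdhga3 and Pcdhgb1. At Pcdha4 and Pcdhb20 both H3K9ac percentiles were the higher. No difference between the marks is read from these single members. Pcdhga1, the first gene of the cluster, was listed for H3K9cr alone, at 4.54 and 3.02. Pcdhga9 was listed in H3K9cr replicate 1 alone, at 6.80. Pcdhgb4 was listed in H3K9cr replicate 1 at 7.15 and in H3K9ac replicate 2 at 12.2. Percentiles of the peaks at Pcdhga1, Pcdhga9 and Pcdhgb4 ran from 0.492 to 35.8, so not all of them stood near the lowest of their lists. The other variable gamma members in all 4 libraries, Pcdhga2, Pcdhgb1, Pcdhgb2 and Pcdhgb6, had values between 6.83 and 26.6.

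Over the variable members listed in every library, the median percentile was 76.8, 72.5, 75.4 and 73.5 in the alpha cluster. It was 43.4, 43.5, 39.5 and 42.8 in the beta cluster and 52.2, 54.6, 45.4 and 50.9 in the gamma cluster. The mean of these medians was 74.5 ± 1.90 for alpha, 42.3 ± 1.89 for beta and 50.8 ± 3.88 for gamma (SD, n = 4 libraries). In every library the order was alpha, gamma, beta. The 10743 other genes listed in every library had medians of 77.4, 77.4, 75.5 and 77.0, close to the alpha promoters and above the others. These medians describe only the listed members, since weak and unlisted ones are left out, and libraries of the 2 marks were pooled in the SD. Ranked by pileup, the alpha, beta and gamma medians were 80.0, 47.3 and 50.4, with beta and gamma closer together. Ranked by peak length, they were 27.1, 24.0 and 24.0, close to one another.

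The 5 C-type promoters did not behave as 1 group. Pcdhgc3, which is also expressed outside the nervous system, had the strongest of them, at 37806410, with fold enrichments of 72.2, 92.6, 63.8 and 108. Pcdhgc4, which is needed for the survival of cortical interneurons in mice, begins at 37815079 and had 25.7, 37.8, 23.3 and 42.0. Pcdhgc5, at 37819546, had 10.3, 4.84, 6.34 and 6.35. Every library gave the same order, Pcdhgc3 above Pcdhgc4 above Pcdhgc5, and their percentiles did not overlap. Of the alpha pair, Pcdhac1 (37090136) had 15.6, 13.1, 17.0 and 16.2. Pcdhac2 (37143678), which serotonergic neurons need to spread their axons evenly, had 18.7, 38.8, 15.4 and 49.1. By fold enrichment, Pcdhac2 ranked higher in both libraries numbered 2, at percentiles 67.6 and 69.7 against 48.7 and 45.0. The C-type median percentile was 48.7, 66.9, 47.6 and 65.5. It lay below the alpha and above the beta variable median in every library. Against the gamma variable median it was lower in H3K9cr replicate 1 and higher in the other libraries.

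Peaks at variable promoters were short when set beside those of other genes. At the 36 variable members listed in every library, the median peak length was 602.5, 619.5, 592.5 and 604 bp. At 10743 other genes it was 2021, 2069, 1865 and 1991 bp. Peaks shorter than 700 bp made up 26, 28, 30 and 26 of the 36, that is 72.2, 77.8, 83.3 and 72.2%, and 3.82, 3.46, 5.59 and 3.67% at other genes. The median lengths were nearly the same for both marks and in all libraries. Single members varied more, such as Pcdhb11 with 823, 1022, 364 and 821 bp. How reads with several matches were treated is not given, and its part in the lengths of listed peaks was not tested either.

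**Figure D2:**
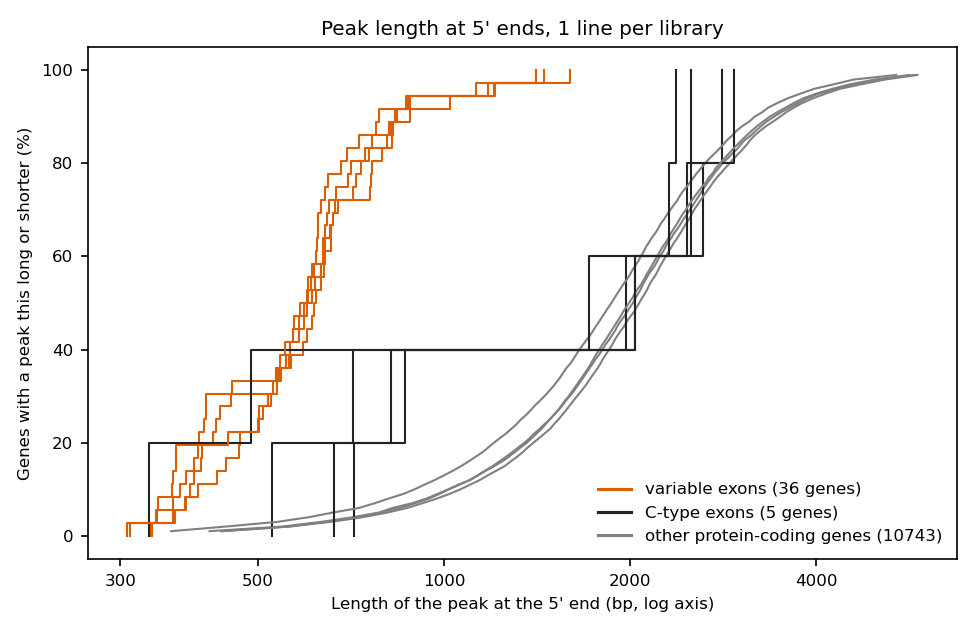
Cumulative share of genes (vertical axis, %) against the length of the peak at the 5' end (horizontal axis, bp, log scale), with 1 line per library for 36 variable members, 5 C-type members and 10743 other protein-coding genes. The variable lines rise steeply below 700 bp and those of other genes above 1000 bp, while the C-type lines span both ranges.

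The variable peaks began near the start of the gene. Over the 36 members, their left edge had a median of −20.5, −19.5, −15.5 and −11 bp from the 5' end, and their right edge one of 549.5, 577, 542.5 and 551 bp downstream. At other genes the left edge stood at −770, −790, −697 and −755 bp and the right edge at 1187, 1216, 1131 and 1180 bp. The listed peaks at variable exons thus reached less far upstream than those at most other genes. The clusters were not alike in this: the median left edge was −86.5, −93.5, −76.5 and −70.5 bp in the alpha cluster, −4, −9, 3.5 and −7.5 bp in the beta cluster and 0, −7, 3 and −6 bp in the gamma cluster. Pcdha1, Pcdha4, Pcdha8, Pcdha10, Pcdha12 and Pcdhb8 began more than 100 bp upstream in every library. A left edge more than 200 bp upstream was found at 1 of 36 variable members in each library, and at 86.9, 87.6, 82.4 and 86.8% of other genes. That member was Pcdha4, whose left edge lay between 838 and 900 bp upstream. Summits lay downstream of the start at 36, 35, 35 and 35 of the 36, at a median of 138.5, 149, 134 and 142 bp. For other genes the median summit was 287, 300, 299 and 297 bp downstream, so the variable summits lay nearer to the start as taken here. The starts of members and of other genes came from different sources, and the part of this in these distances was not tested.

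**Figure D3:**
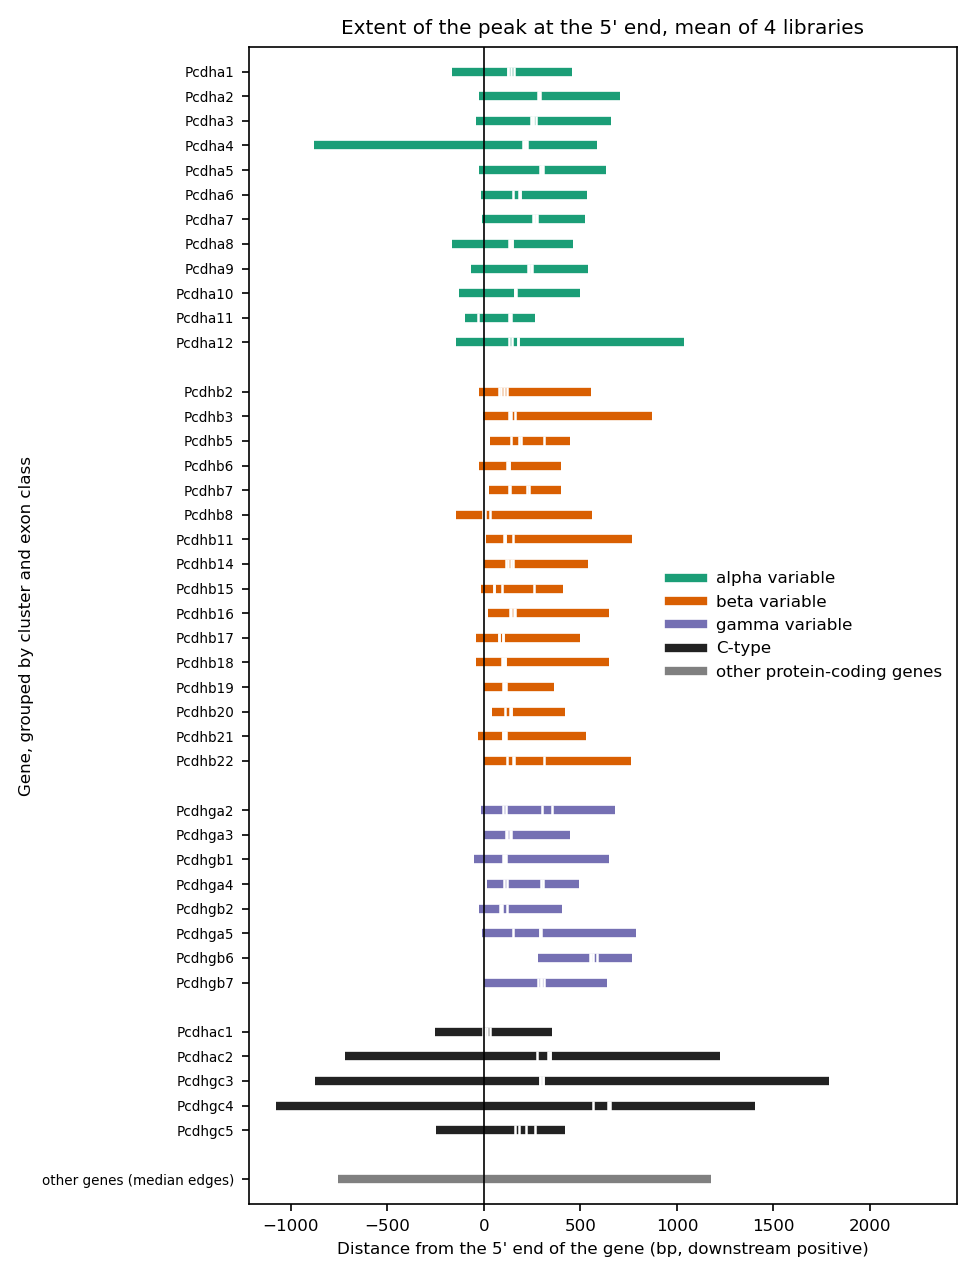
Extent of the peak at the 5' end of the 41 members listed in every library (horizontal axis, bp from the 5' end, downstream positive), with bars from the mean left to the mean right edge over 4 libraries and white lines at each library's summit. Most beta and gamma variable bars begin near 0, several alpha bars somewhat upstream, and those of Pcdha4 and the C-type members further upstream; the grey bar gives the median edges at other protein-coding genes.

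Short length was not limited to weak peaks. Above the 75th percentile of fold enrichment stood 8, 7, 7 and 6 variable members, and 5, 5, 5 and 4 of them had peaks shorter than 700 bp. Their median lengths were 658.5, 637, 634 and 661 bp. Other genes in the same range of strength had median lengths of 2295, 2352, 2172.5 and 2264 bp, and 0.1196, 0.1024, 0.147 and 0.121% of their peaks were shorter than 700 bp. Pcdha8, above the 90th percentile in each list, had a peak of 604, 633, 625 and 656 bp. Pcdhgb7 had one of 637, 637, 634 and 640 bp, which varied by 6 bp over the libraries. Below the 25th percentile the lengths came closer, with medians of 461, 380, 373 and 374 bp at variable members and 618.5, 683.5, 555.5 and 653.5 bp at other genes.

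Single variable members departed from this shape. Pcdha4 had the longest variable peak, at 1407, 1599, 1407 and 1453 bp. Pcdha12 had 1177, 1210, 1205 and 1129 bp, with a left edge of 130 to 157 bp upstream and the added length downstream. The peaks of 6 variable members began downstream of the annotated start in every library. At Pcdhgb6 the left edge lay 266 to 318 bp downstream, while at Pcdhb5, Pcdhb7, Pcdhb11, Pcdhb16 and Pcdhb20 it lay between 3 and 48 bp downstream. The Pcdhgb6 peak had a length of 500, 529, 409 and 503 bp, within the range of the other variable peaks.

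C-type peaks were of 2 kinds. Pcdhac2 (2038, 1968, 1716 and 2038 bp), Pcdhgc3 (2818, 2510, 2945 and 2376 bp) and Pcdhgc4 (2622, 2469, 2513 and 2315 bp) had peaks as long as those of other genes, reaching well upstream of the start. Pcdhac1 (527, 716, 488 and 714 bp) and Pcdhgc5 (822, 864, 334 and 664 bp) had short ones. In each library 3 of 5 C-type peaks exceeded 1000 bp, whereas 2, 3, 2 and 2 of 36 variable peaks did. The C-type median length was 2038, 1968, 1716 and 2038 bp. With 5 genes in 1 cell line, the difference from variable exons is a description of these promoters.

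Fold enrichments and their percentiles followed the replicate number more closely than the mark. Over the 41 members listed in every library, the percentiles of the 2 marks differed by a median of 4.56 points between the libraries numbered 1 and of 2.63 points between those numbered 2. Replicates differed by 7.39 points for H3K9cr and by 9.33 points for H3K9ac. Spearman's rho of fold enrichment across these genes was 0.935 and 0.969 between marks of the same number and 0.856 and 0.862 between replicates of a mark. These are descriptions over 41 genes of shared libraries, and genes are not independent replicates. At 27 of the 41 members (65.9%) the same number brought closer values than the same mark, at 6 (14.6%) the same mark did, and at 8 (19.5%) the average differences were equal. Among the 10743 other genes these shares were 57.4, 24.9 and 17.7%. The differences between replicates of a mark were larger at members (median 8.48 points) than at other genes (4.65 points). Between libraries of the same number the medians were 4.06 points at members and 2.78 points at other genes. The 2 sets were not matched in strength. Their median percentiles were 50.6, 56.5, 50.5 and 53.2 at members and 77.4, 77.4, 75.5 and 77.0 at other genes. The largest change in percentile among members was at Pcdhac2, where replicates of a mark differed by 21.8 points on average and libraries of the same number by 2.91 points. The pileup there, whose scale may differ between lists, was 129.59, 126.32, 89 and 157.17. The 2 H3K9cr pileups were thus close, while their fold enrichments were 18.7 and 38.8. The part of the local background in this change was not tested.

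**Figure D4:**
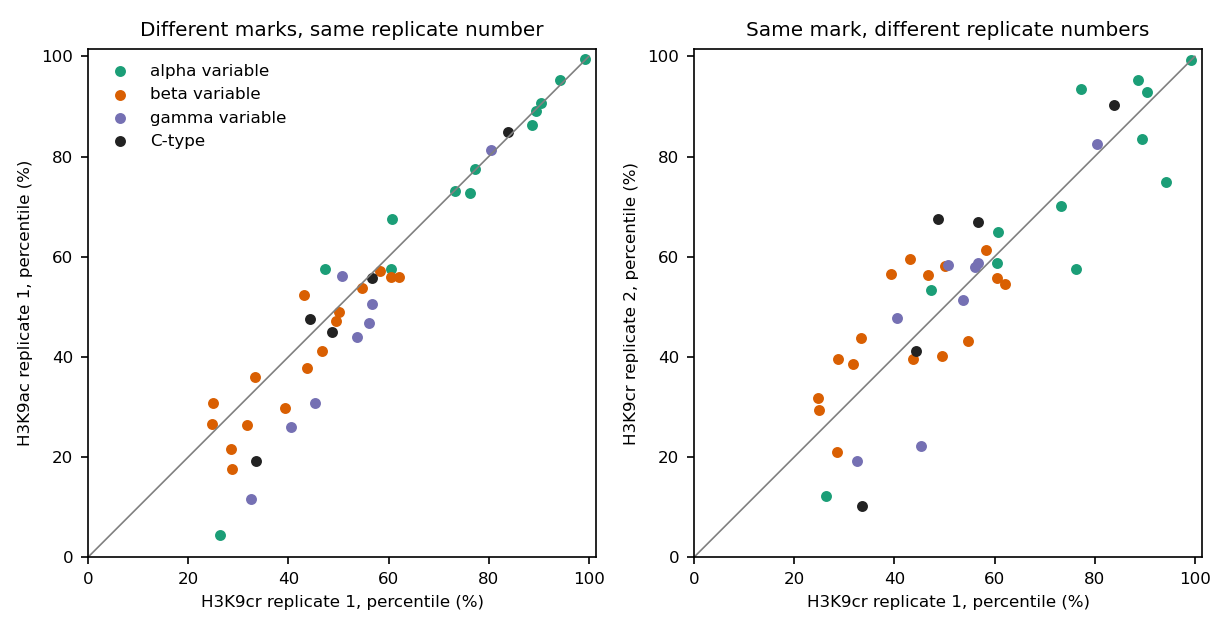
Percentile of fold enrichment (%) at the 41 members listed in every library, for H3K9ac replicate 1 against H3K9cr replicate 1 (left) and for the 2 replicates of H3K9cr (right), with the line of equality. Points lie closer to the line on the left (median difference 4.56 points) than on the right (7.39 points).

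Whether H3K9cr and H3K9ac differed in extent was asked of the length covered by peaks within 2.5 kb of the 5' end, centred on the library median over all genes. With limma and Benjamini-Hochberg adjustment, 0 of 11020 genes (0%) had an adjusted p under 0.05, the smallest being 0.514, and 528 genes had an unadjusted p under 0.05. Among the 41 members tested, 0 had an unadjusted p under 0.05 in limma, and the smallest adjusted p was 0.920. The largest difference was at Pcdhgc5, where H3K9cr peaks covered 1098 and 1350 bp and H3K9ac peaks 581 and 994 bp. After centring this came to 337 ± 138 bp (SE), with an unadjusted limma p of 0.0566. The members' differences ranged from −197 bp at Pcdhb17 to 337 bp, with a median of −73 bp against −22 bp over all genes tested. Without centring the members' median was 26.5 bp and that of all genes 77.5 bp, so the sign at members depends on the centring. Leaving out H3K9ac replicate 1 moved the centred median to −34 bp, and leaving out H3K9ac replicate 2 moved it to −116.5 bp.

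Across each whole cluster, both H3K9cr lists covered more sequence than either H3K9ac list, a difference that 4 libraries cannot carry past a p of 0.333. In the gamma cluster the H3K9cr peaks covered 20302 and 19646 bp and the H3K9ac peaks 15445 and 17237 bp, means of 19974 ± 464 and 16341 ± 1267 bp (SD, n = 2). The groups did not overlap, and the exact two-sided permutation p was 0.333, the smallest that 2 against 2 libraries allow. In the alpha cluster, the bp covered were 13909 and 13853 for H3K9cr and 12442 and 13464 for H3K9ac. For the beta cluster the values were 10048 and 10075 bp against 8670 and 9997 bp. The exact permutation p was again 0.333 for each. With equal numbers of peaks per list the beta difference was 88 bp, with an exact permutation p of 1, and the marks no longer separated there. The alpha difference of 928 bp was 417 bp without H3K9ac replicate 1 and 1439 bp without H3K9ac replicate 2. The beta difference of 728 bp was 64.5 and 1391.5 bp without the same libraries. Relative to the total covered by each list, the alpha and beta differences turned to −5.78 and −2.39 bp per covered Mb, so the direction held under this scaling for the gamma cluster alone.

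Merging peaks of all libraries gave 55 distinct regions in the clusters, 48 of them with a peak in all 4 libraries. The alpha cluster held 16 regions (61.9 per Mb), the beta cluster 19 (74.1 per Mb) and the gamma cluster 20 (111 per Mb), while the genome held 31126 regions, or 11.5 per Mb. Of the 55, 47 lay at the 5' end of a member, and in the beta cluster all 19 did. The other 8 came to 11.5 per Mb over the 3 clusters, with 2 in the alpha cluster (7.73 per Mb), 0 in the beta cluster and 6 in the gamma cluster (33.3 per Mb). The genome's density includes regions at the starts of genes, whereas these 8 leave out those at member starts, so the density of the 8 cannot be set against it. The longest stretch without a region was 68.4 kb in the alpha cluster, between Pcdha12 and Pcdhac1, 55.8 kb in the beta cluster, around Pcdhb9, and 37.9 kb in the gamma cluster, around Pcdhga12.

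**Figure D5:**
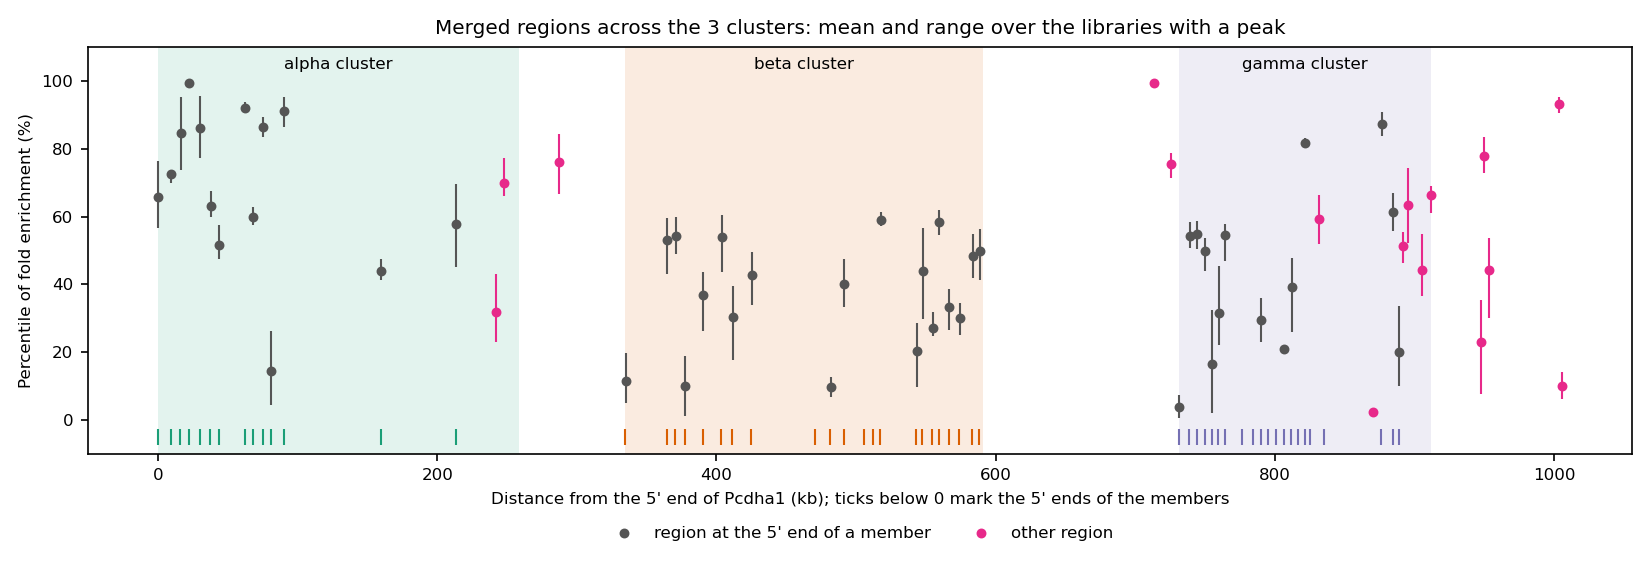
Mean percentile of fold enrichment of each merged region (vertical axis, %, with the range over the libraries that list it) against the distance from the 5' end of Pcdha1 (horizontal axis, kb), with ticks for the 57 member starts. Regions away from the member starts lie in the later parts of the alpha and gamma clusters or outside the clusters, and the beta cluster holds none.

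The 8 regions away from member starts lay in the later parts of the alpha and gamma clusters. In the alpha cluster, regions at chr18:37172133-37172998 and chr18:37177379-37179237 lay beyond the start of Pcdhac2, with fold enrichments of 14.6, 8.05, 10.1 and 7.81 and of 57.6, 39.9, 33.7 and 46.5. The second of them was stronger than the peaks of both alpha C-type promoters in H3K9cr replicates 1 and 2 and in H3K9ac replicate 1. Enhancers known in this part of the locus are not marked in the tables used here, and no region is given such a name. In the gamma cluster, the pseudogene Pcdhgb8 had a region at chr18:37761416-37762728, with 37.9, 21.8, 32.6 and 23.8, although the protein-coding neighbours Pcdhga11 and Pcdhga12 had none.

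Downstream of the gamma C-type starts the regions were closer together. One at chr18:37821561-37823395 lay in the first 3 kb of Pcdhgc5, with fold enrichments of 20.7, 23.5, 16.1 and 23.9, above the peak at the start of Pcdhgc5 itself in all 4 libraries. The next, at chr18:37824420-37827078, coincided with the noncoding gene Gm29994 and had 26.8, 50.8, 20.3 and 49.0. A further region, at chr18:37834840-37837065, had 23.6, 14.8, 12.9 and 12.7. At the shared end of the gamma records, chr18:37841097-37843366 had 41.9, 41.2, 34.3 and 35.1 and also lay near the end of Diaph1. All of these were listed for both marks in both replicates. One weak region, chr18:37800603-37801120, was listed for H3K9cr alone, at 3.53 and 3.73.

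The protocadherins outside the clusters, whose genes each have a single set of exons, gave a comparison within the family. Of 12 such genes, 8 had a peak at an end of the record in all 4 libraries (66.7%, against 61.5% of 21887 protein-coding genes counted in the same way). At these 8 the median peak length was 2119.5, 2121.5, 2044.5 and 2243.5 bp, near that at other genes and above that of the variable exons. Pcdh1 had fold enrichments of 79.5, 72.8, 66.1 and 102.4. Pcdh12, a vascular protocadherin, had no peak in any library. Pcdh8 (4.28 to 5.57), Pcdh9 (8.51 to 11.02) and Pcdh20 (4.59 to 8.10) were listed in 3 libraries each. Short peaks occurred here too, with lengths of 360 to 571 bp at Pcdh8, where they lay outside the record. The lengths were 306 to 945 bp at Pcdh20 and 888 to 1060 bp at Pcdh9.

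Of 18 genes known to act on promoter choice in the clusters, 13 had a peak at a record end in all 4 libraries (72.2%), a share near the 61.5% of all protein-coding genes. Ctcf, which encodes the looping factor that binds these promoters, had fold enrichments of 144, 141, 118 and 172. The lowest of the 13 was Setdb1, a methyltransferase of lysine 9 that acts on these clusters in mouse neurons, with 24.2, 25.2, 19.4 and 27.5. The cohesin genes Rad21, Stag1 and Nipbl (the last a cohesin loader) and the DNA methyltransferase genes Dnmt1 and Dnmt3a had no peak at either end of the record, but a peak within the record in all 4 libraries. By the same count, of 16 genes for partners of the proteins, such as secretases that cleave them and the WAVE complex that binds them, 15 (93.8%) were marked at an end. Abi2, a WAVE complex subunit, had its peaks within the record instead. Psenen, a subunit of the secretase, was highest, with 156, 173, 136 and 161, and Psen2 was lowest, with 13.2, 12.7, 9.53 and 17.6.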

How the data were processed

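Native chromatin immunoprecipitation and sequencing was done for 2 marks in 2 biological replicates each, per the labels' protocols and the series design text; 4 libraries with peak lists were used, and the 2 inputs and their pairing were not analysed here. Bowtie2 2.4.1, MACS2 2.2.7.1 and the build GRCm38 are named in the submitters' processing notes; options, duplicate handling and depth are not given in these sources. Per the file headers, the authors' peak lists give position, summit and pileup, a coverage signal at the summit, in whole numbers only in H3K9ac replicate 1. Each deposited −log10 value, of a p-value or of a q-value, is the peak caller's; the smallest −log10 q was 2.02 to 2.06. The deposited fold enrichment is a ratio to local background, and was used only for ranks within a list and for description. Deeper sequencing lengthens lists and peaks, which the lists cannot separate from more signal.

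Members and starts came from RefSeq tables of GRCm38; the 5' ends of 17492 other genes, none on chromosome 18, came from the promoter table, 1 start per gene. For listed genes outside the clusters either end of the record was used, as no start table covers all of them. Peaks overlapping a window of 1 kb on each side by at least 1 bp were counted, and overlapping peaks from any library were merged into regions. Covered length was fitted with limma 3.58.1 in R 4.3.3, tested on simulated data. Covered lengths of clusters were compared by an exact two-sided permutation test. Replicates are biological per the design text. Other steps used Python 3.11.15, numpy 2.4.6, pandas 2.3.3 and scipy 1.17.1.

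Genes named with values were the C-type genes, the first of each cluster, the 3 highest and 3 lowest variable members of each cluster by mean percentile over the libraries with a peak, members listed in part of the libraries or in none, neighbours, and up to 4 members per list without both marks or else the highest and lowest; others are said to be chosen after their values were seen, or given as examples. The members and lists were chosen with earlier results of these data known. Alternatives were other windows, overlaps, thresholds, ranks, scalings, a replicate block and leaving out each library.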

Additional observations from a re-analysis of the deposited data

How the results depend on the processing

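The number of members listed in all 4 libraries was the same with windows of 500 bp or 2.5 kb, with an overlap of 200 bp, with the summit inside the window and with equal numbers of peaks. At a −log10 q of at least 10, Pcdha11, Pcdhga4 and Pcdhgc5 were lost, and the C-type median length became 2210 bp. Without H3K9ac replicate 1, Pcdhb1 was gained. With 1 library left out, counts ranged from 41 to 42 over all members, 14 to 14 for alpha, 16 to 17 for beta, 11 to 11 for gamma and 5 to 5 for C-type genes, and regions from 16 to 16, 19 to 19 and 19 to 20 in the alpha, beta and gamma clusters. Median percentiles then ranged from 73.8 to 75.2 for alpha, 41.9 to 42.7 for beta, 49.5 to 52.6 for gamma and 53.9 to 60.4 for C-type members, and median lengths from 599.7 to 605 bp for variable and 1907 to 2015 bp for C-type members. Ranked by pileup, the alpha, beta, gamma and C-type median percentiles were 80.0, 47.3, 50.4 and 64.8, so beta and gamma lay closer together than by fold enrichment. Ranked by length, the 4 medians in the same order were 27.1, 24.0, 24.0 and 72.9. With equal numbers of peaks the beta median was 39.1. The cause of these shifts was not tested.

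Relative to the total covered length, the cluster differences reversed to −5.78 bp per covered Mb for alpha and −2.39 for beta (exact permutation p 0.667 and 1). With equal numbers of peaks the beta difference was 88 bp (p 1 by the same test). Without centring, the members' median difference reversed to 26.5 bp. With 1 library left out it ranged from −116.5 to −34 bp, the covered length differences from 417 to 1439 bp (alpha), 64.5 to 1391.5 bp (beta) and 2737 to 4529 bp (gamma), and genes past the limma threshold from 0 to 0. With the replicate number as a block, limma called 0 genes (smallest adjusted p 0.668), and 643 genes had an unadjusted p under 0.05; 1 member had an unadjusted p under 0.05. Deviations from the mark means of same-numbered libraries correlated at 0.141 across 11020 genes, and the labels do not pair them.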

Other observations

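Peaks of genes and regions around the clusters ranged from strong to unlisted. The pair Hars2 and Zmat2, upstream of the alpha cluster, shares a peak with fold enrichments of 162, 187, 139 and 212 in the library order used above. Taf7, a subunit of the general transcription factor TFIID between the beta and gamma clusters, had 201, 166, 171 and 197, and its neighbour Slc25a2 had no peak. Downstream, Diaph1, a formin, had 99.6, 119.7, 78.4 and 128, and the deacetylase gene Hdac3 had 54.0, 31.1, 42.0 and 42.4. Pcdh1 and Pcdh12 are described above. In all, 6 of these 8 neighbours had a peak at a record end in all 4 libraries, with the peak of Hars2 and Zmat2 counted for both. This share of 75% was near the 61.5% of all protein-coding genes by the same count.

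Several regions between and beyond the clusters lay at no end of a gene record. One at chr18:37216768-37218279, 27871 bp past the end of the alpha records, had fold enrichments of 62.1, 72.9, 44.2 and 43.7. Another, at chr18:37655181-37656504, lay before Pcdhga1 and had 59.9, 45.0, 51.6 and 55.7, above every peak of the first 7 variable gamma members. Beyond the gamma cluster, inside the Diaph1 record, the region chr18:37879227-37880824 had 71.2, 58.6, 42.4 and 65.0. It was flanked by chr18:37876900-37878437 (6.58, 10.4, 4.53 and 9.67) and chr18:37883242-37884574 (19.03, 21.8, 8.91 and 17.1). A weak region at chr18:37935743-37936061, between Diaph1 and Hdac3 and within 1 kb of an end of each record, was listed for H3K9cr alone, at 4.36 and 5.38. All the others were listed for both marks in both replicates, and no end of a gene record lay at them.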
